A study of Mus musculus with 15 samples.

Results

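Primary mouse lung fibroblasts given IL-33 alone were compared with untreated cells across every gene that reached 1 TPM in at least 3 of the 6 libraries. TPM is a read number scaled for length and for the total of each library. This kept 13275 of the 18078 genes in the files. Of the 15 libraries of the study, 3 are IL-33 alone and 3 are untreated. All were labelled as wild-type BALB/cJ cells and sampled at 20 h, and the other groups combined IL-33 with IL-13, with IL-17A or with both. The labels name no animals or cultures, so the tests cover the spread among libraries alone, and that spread may be technical. The study's title names factors that such fibroblasts secrete and that act on macrophages.

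Damaged barrier cells release IL-33, a cytokine related to IL-1. It binds ST2, encoded by Il1rl1, which pairs with the accessory chain Il1rap and signals through Myd88 to NF-kB and the MAP kinases. In the lung it is best known for acting on innate lymphoid cells and mast cells, but stromal cells can carry the receptor too. NF-kB, AP-1 and C/EBP factors bind promoters of many chemokine and acute-phase genes, while SRF binds the CArG box of actin and other contractile genes.

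Promoters of 4 genes with large differences are shown to place those sites beside the values that follow, 3 from genes that rose and 1 from a contractile gene that fell. Each run is the 250 bases before the RefSeq start site (GRCm38.p6), 5′ to 3′ on the strand of the gene. Capitals mark a match to the NF-kB motif in Cxcl1 (chr5:90890995-90891244, plus strand) and Cxcl2 (chr5:90903649-90903898, plus strand). In Saa3 (chr7:46715677-46715926, minus strand) they mark matches to the C/EBP motif TTNCNNAA, which read on the strand opposite to the one printed. In Acta1 (chr8:123894776-123895025, minus strand) they mark the CArG box.
Cxcl1: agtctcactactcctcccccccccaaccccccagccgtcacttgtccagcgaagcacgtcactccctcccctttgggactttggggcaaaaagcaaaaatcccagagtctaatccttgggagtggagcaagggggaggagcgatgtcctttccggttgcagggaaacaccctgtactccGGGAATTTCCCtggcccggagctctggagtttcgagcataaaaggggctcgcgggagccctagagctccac
Cxcl2: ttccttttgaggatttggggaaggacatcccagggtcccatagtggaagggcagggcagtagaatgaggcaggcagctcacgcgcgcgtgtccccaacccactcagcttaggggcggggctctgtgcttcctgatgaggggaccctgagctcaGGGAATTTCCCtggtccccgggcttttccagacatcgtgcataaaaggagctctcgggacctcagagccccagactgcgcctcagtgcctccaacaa
Saa3: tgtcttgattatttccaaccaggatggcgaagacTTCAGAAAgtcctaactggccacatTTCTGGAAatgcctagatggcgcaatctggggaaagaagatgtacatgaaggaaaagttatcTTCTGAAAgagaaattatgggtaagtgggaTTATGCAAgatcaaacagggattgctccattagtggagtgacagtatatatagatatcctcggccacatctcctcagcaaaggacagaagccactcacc
Acta1: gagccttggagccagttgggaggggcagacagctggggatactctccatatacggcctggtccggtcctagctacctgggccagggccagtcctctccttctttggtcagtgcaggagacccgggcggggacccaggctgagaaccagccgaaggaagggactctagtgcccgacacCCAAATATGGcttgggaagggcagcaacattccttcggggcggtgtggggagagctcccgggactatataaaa

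The marked NF-kB stretch of 11 bases is the same in both chemokine promoters and lies at -71 to -61 in Cxcl1 and at -97 to -87 in Cxcl2. Saa3 held 4 C/EBP matches. Acta1 held its CArG box at -73 to -64 and, on the strand opposite to the one printed, the TEAD motif GGAATG at -46 to -41. Also chosen by size of difference, but not printed, were Lcn2, Il1a and Serpinb2, which rose, and Des, which fell. In their 250 bases Lcn2, Il1a and Serpinb2 held 0 NF-kB matches and 1, 1 and 2 C/EBP matches. Des held 0 CArG boxes and 1 NF-kB match. The RefSeq start site of Lcn2 lies 513 bases from the Ensembl gene start. Both strands were searched from 250 bases before to 50 after the start. Of the genes called at 2-fold or more, 82 of the 134 higher and 31 of the 49 lower had a promoter entry. The shares below leave out the rest. An NF-kB match stood in 15 of the 82 promoters of genes called higher by 2-fold or more (18.3%), against 5.12% of the 9548 tested genes with a promoter and 4.51% of all 32851 promoters. Of the 31 promoters of genes called lower by 2-fold or more, 0 held an NF-kB match, 12.9% an AP-1 match and 41.9% a C/EBP match. Of the 19 promoters of contractile genes called lower 3 held an NF-kB match (15.8%). The AP-1 motif TGANTCA stood in 28.0% of those 82 promoters against 4.84% of the tested genes and 7.81% of all promoters, and the C/EBP motif in 54.9% against 30.9% and 40.7%. The CArG box stood in 4 of the 19 promoters of contractile genes called lower (Acta1, Myl9, Ldb3 and Cnn2), against 1.34% of the tested genes and 1.63% of all promoters. The TEAD motif stood in 42.1% of those 19 promoters and in 19.5% of the 82 of genes called higher by 2-fold or more. Its share was 11.7% of the tested genes and 14.7% of all promoters. These shares were not tested, and a match is a description of the letters only.

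IL-33 was followed by a wide change that was deep for few genes. In limma's test on log2(TPM + 1), 1593 genes passed an adjusted p of 0.05 (12% of those tested), 682 higher (5.14%) and 911 lower (6.86%). Only 183 of them (1.38%) differed by 2-fold or more, 134 higher and 49 lower. Rises were the larger changes: 39 genes rose and 4 fell by 4-fold or more, and 18 rose by 8-fold or more. The 4 falls were Aqp5 and the processed pseudogenes Rpl30-ps1, Gm10709 and Gm26587. These pseudogenes rested on 6, 5 and 11.1 estimated reads untreated and 0 with IL-33. The rises held the processed pseudogene Gm3219, on 9 reads with IL-33 and 0 untreated. The median called rise was 0.48 and the median called fall -0.37 on the log2 scale.

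The split between rises and falls depends on the scaling. TPM has a fixed total, and the median of all tested genes was -0.05. With median-ratio scaling, which set that median to 0.00, 942 genes were higher and 692 lower, so that 57.6% of calls were rises in place of 42.8%. Of the calls on TPM as deposited, 678 of the 682 rises and 686 of the 911 falls were called the same way. Library 3 of each group stood apart from libraries 1 and 2. Mean chi-square per gene, which sampling noise alone would put at 1, was 1.51 and 1.33 for libraries 1 and 2 of the IL-33 and untreated groups but 3.04 to 4.21 for pairs with a library 3. Across 5442 genes, deviations from the group mean correlated at 0.47 between library 3 of both groups and at 0.35 between library 1 of both. The value was 0.02 between library 2 of both and 0.26 between IL-33 library 1 and untreated library 2. Between library 1 of one group and library 3 of the other it was -0.45 and -0.39. Deviations within a group sum to 0, so these values are not independent of each other. Without library 3 of both groups 998 genes were called. Without IL-33 library 1 or 2 the number was 902 or 861, and without untreated library 1 or 2 it was 927 or 816. In every fit that left out 1 library 692 of the 1593 genes were called, and 153 of the 183 that differed by 2-fold or more.

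**Figure D1:**
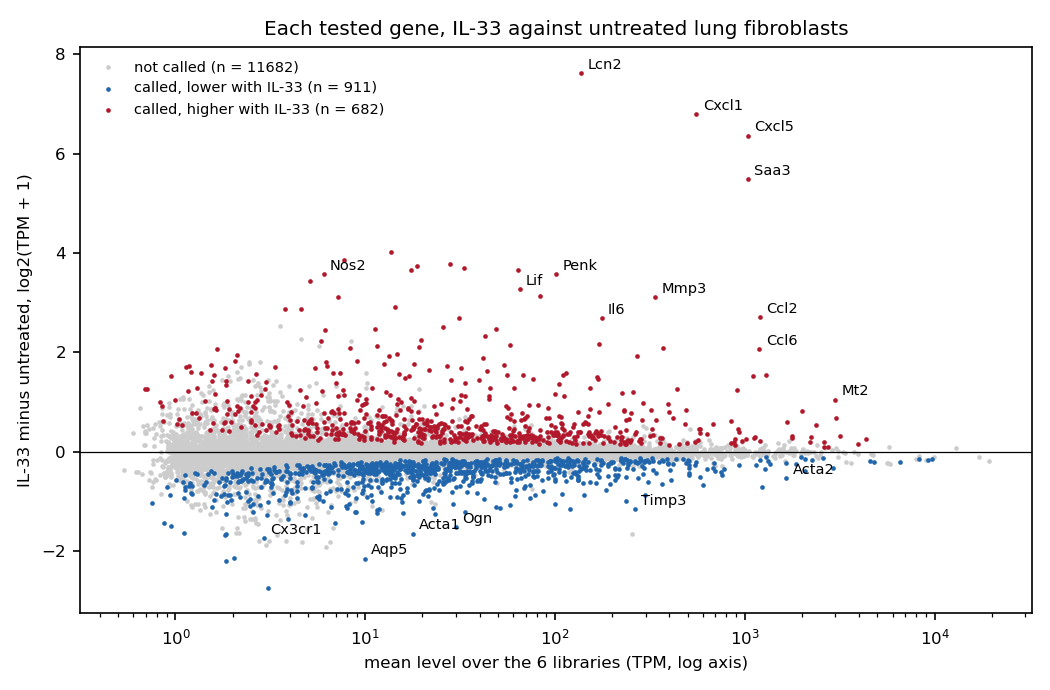
Each point is 1 of the 13275 tested genes, placed by its mean TPM over the 6 libraries (log axis) and by IL-33 minus untreated on the log2(TPM + 1) scale. Red points (682) were called higher and blue points (911) lower; the red points reach 7.63 at Lcn2, while the named genes called lower stay above -3.

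The cultures held fibroblast and macrophage transcripts together. All 14 fibroblast markers and 13 of 16 macrophage markers were tested. Summed macrophage markers stood at 19643 to 19832 TPM with IL-33 and at 20187 to 20594 TPM untreated, and summed fibroblast markers at 14028 to 14883 and 15780 to 17191 TPM. Both sums were lower with IL-33 in every library on TPM as deposited. With median-ratio scaling both overlapped, at 19700 to 20384 against 19232 to 20398 TPM for macrophage markers and at 13934 to 15422 against 15033 to 17028 TPM for fibroblast markers. Of the 14 fibroblast markers 2 were higher (Dcn and Lum) and 7 lower, with a median of -0.20, or 2 and 3 with median-ratio scaling. Of the macrophage markers, 3 were higher (Mrc1, Itgam and, except without library 3 of both groups, Cd14), 2 lower (Adgre1 and Csf1r, both lost in 5 of the 6 fits that left out 1 library) and 8 not called. The files held 4 of 12 lymphocyte, 4 of 9 dendritic, 6 of 10 epithelial and 6 of 8 endothelial cell markers, with 2 tested per list. Those held summed to under 15 TPM per list in every library. Of the mast cell and basophil markers 2 of 8 were held, and of the neutrophil and eosinophil markers 5 of 10. Levels of different genes depend here on intron length, so sums of different lists cannot be compared as amounts of cells. Mast cell and basophil markers summed to 108 to 120 TPM with IL-33 and 83.5 to 92.1 TPM untreated, and the 1 tested, the basophil protease Mcpt8, rose by 0.40. Of the neutrophil and eosinophil markers 2 were tested, S100a8 higher by 1.89 (also in the acute-phase list) and Csf3r lower by 0.45 (lost in 4 of the 6 fits that left out 1 library), and their sum was 63.0 to 84.6 TPM with IL-33 and 22.9 to 29.6 TPM untreated. Of 5 tested mesothelial markers 2 were lower, Lrrn4 by 1.21 and Upk3b by 0.82, with sums of 21.7 to 23.2 TPM against 32.3 to 36.8 TPM. Calb2, also of this list, was left out by the filter at 1 TPM and went the other way. It had 5, 6 and 5 estimated reads untreated and 34, 29 and 26 with IL-33. Its log2 difference was 2.39 (limma-voom on estimated reads, adjusted p = 1.88e-05). In bulk RNA, fewer cells of a type and less RNA per cell cannot be told apart, and which cells of the culture made a transcript was not tested.

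The receptor for IL-33 was expressed before treatment. Il1rl1 (chromosome 1, 40429570 to 40465415, mm10) stood at 49.0, 50.4 and 55.4 TPM in the untreated libraries and at 62.6, 58.6 and 74.4 TPM with IL-33. The log2 difference of 0.33 ± 0.10 (SE) was not called (limma, adjusted p = 0.0926). It was called with median-ratio scaling (limma, adjusted p = 0.034) and with limma-voom on estimated reads (adjusted p = 0.0017). Its partner Il1rap rose from 5.26 ± 0.24 to 8.09 ± 0.47 TPM (SD, n = 3 per group), a log2 difference of 0.54 (limma, adjusted p = 0.0045). The adaptor Myd88 was at 114 ± 3.31 TPM untreated and 105 ± 2.27 TPM with IL-33 and was not called.

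The cytokine's own transcript rose. Il33 (chromosome 19, 29925114 to 29960718) was at 4.66, 4.39 and 4.30 TPM untreated and at 9.94, 11.4 and 11.9 TPM with IL-33. The log2 difference was 1.15 ± 0.08 (limma, adjusted p = 0.00064). Irak3, a brake on MyD88 signalling, rose by 0.39. Of the 15 tested genes of the receptor and MyD88 pathway, 4 rose and 1 fell, with a median of -0.04 against -0.05 for all tested genes. The fall, Irak4, was lost with median-ratio scaling and on leaving out any 1 library.

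In the NF-kB list the largest rises were those of feedback genes. Nfkbiz, an atypical IkB protein that acts in the nucleus, was at 14.6, 14.5 and 14.6 TPM untreated and at 48.8, 47.6 and 50.9 TPM with IL-33. That is a log2 difference of 1.69 ± 0.04 (limma, adjusted p = 1.45e-05). Nfkbia, the main inhibitor that holds NF-kB in the cytoplasm, rose by 1.20 and Tnfaip3, the deubiquitinase A20, by 0.96. Of 24 tested subunits, kinases and feedback genes, 11 rose and 0 fell, with a median of 0.26, and 9 of the rises were called in every fit that left out 1 library. Rela, Rel and the kinase genes Chuk and Ikbkb were not called, with differences from -0.16 to 0.03.

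Of 13 regulators of cytokine mRNA decay, 3 rose. Zc3h12a, the endonuclease Regnase-1 that cuts Il6 and other inflammatory mRNAs, was at 14.7, 13.2 and 12.8 TPM untreated and at 72.0, 72.9 and 70.7 TPM with IL-33, a log2 difference of 2.33 ± 0.06 (limma, adjusted p = 1.45e-05). Arid5a, which protects Il6 mRNA, rose by 0.33. Zfp36, encoding tristetraprolin, was not called at -0.05.

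Feedback genes of the MAP kinase pathway went both ways, with 5 of 14 higher and 2 lower. Spry1, an inhibitor of receptor tyrosine kinase signalling, fell by 0.94 and the phosphatase Dusp1 by 0.55, while Spry2 rose by 0.58. Among the SOCS and RGS inhibitors 4 of 17 were higher and 2 lower (Rgs18 by 0.61 and Rgs10 by 0.35, the latter lost in 5 of the 6 fits that left out 1 library). The largest rise was that of Rgs16, a brake on G protein signalling, which went from 89.1 ± 3.63 to 246 ± 3.37 TPM. Cish and Socs3, brakes on cytokine receptor signalling, rose by 0.96 and 0.84.

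Of 27 transcription factors of the C/EBP, AP-1, EGR and KLF families, 10 rose and 1 fell. Fosl1, an AP-1 subunit, was at 22.9, 18.7 and 21.0 TPM untreated and at 62.6, 58.9 and 53.3 TPM with IL-33, a log2 difference of 1.44. Cebpd rose by 0.81. Cebpb, a driver of acute-phase genes, was at 1680, 1543 and 1106 TPM untreated and at 2849, 2640 and 2119 TPM with IL-33. Library 3 was the lowest of its group in both groups, and its rise of 0.82 was called (limma, adjusted p = 0.0416) but lost in 5 of the 6 fits that left out 1 library.

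Nearly all tested acute-phase and antimicrobial genes rose: 15 of 16 were higher and 0 fell, with a median of 1.93, and all 15 were called in every fit that left out 1 library. Lcn2 (chromosome 2, 32384633 to 32388252), which withholds iron from bacteria, was at 0.274, 0.626 and 0.294 TPM untreated and at 266, 269 and 286 TPM with IL-33. About 4 estimated reads in all stood against 2890. The log2 difference was 7.63 ± 0.10 (limma, adjusted p = 1.58e-06), and 9.11 with limma-voom on estimated reads. Both sizes depend on what is added to values near 0, so no fold is given.

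Saa3, an acute-phase protein made outside the liver, was at 38.9, 40.4 and 55.7 TPM untreated and at 1987, 2021 and 2100 TPM with IL-33. The log2 difference was 5.49 ± 0.14 (limma, adjusted p = 1.79e-05). Hp, encoding haptoglobin, rose by 3.66 and Steap4, a metalloreductase, by 3.11. Camp, the precursor of cathelicidin, rose by 2.88 on 58 estimated reads against 2. Among metallothioneins, which bind zinc and copper, Mt2 rose from 1955 ± 141 to 4043 ± 176 TPM and Mt1 from 2343 ± 98.0 to 3732 ± 60.1 TPM. Serpina3n, at 0.17, was not called, but it was with median-ratio scaling.

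**Figure D2:**
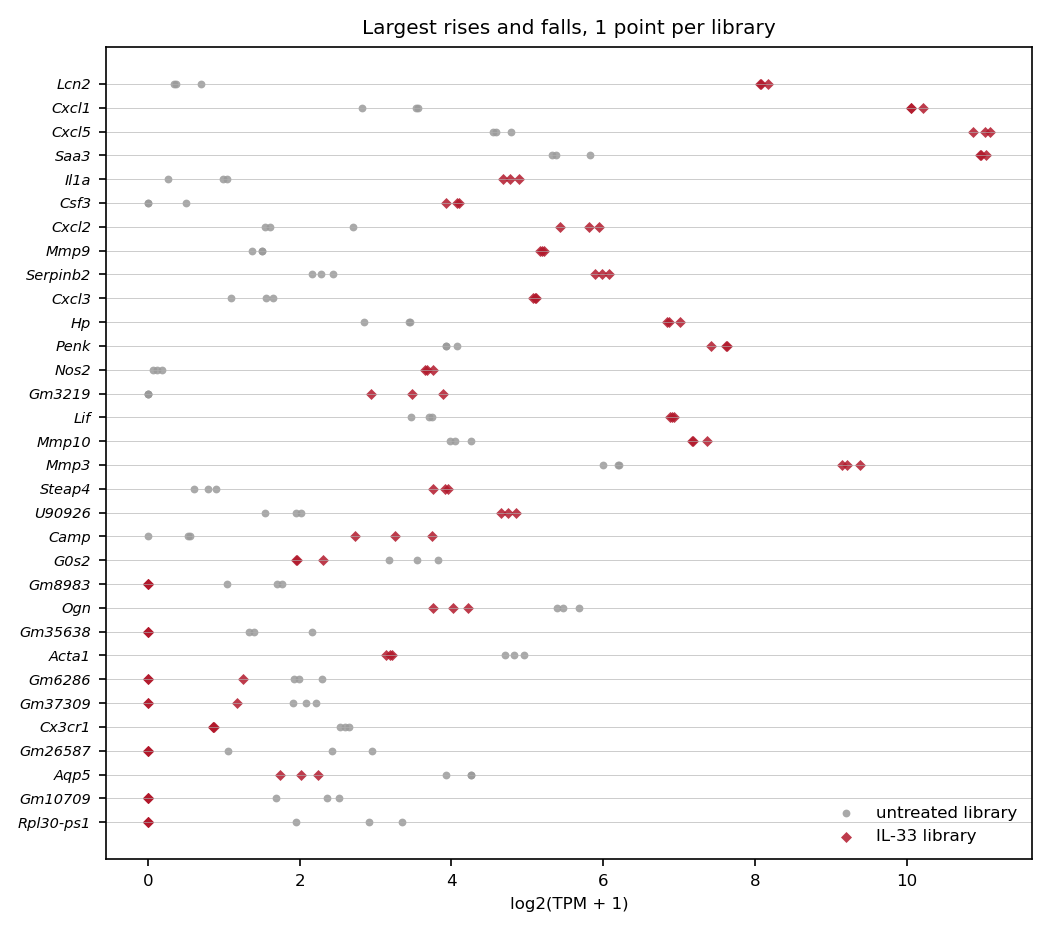
The 20 largest rises and 12 largest falls among called genes, with 1 point per library on the log2(TPM + 1) scale (grey circles untreated, red diamonds IL-33). The groups are separate in every line by the choice of genes, which required it. Several of the gene models that fell sit at 0 with IL-33 on few reads.

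Chemokine genes rose in both families. Of 10 tested CXC genes 6 rose and 0 fell, with a median of 1.24, and of 12 CC and other chemokine genes 8 rose and 0 fell, with a median of 1.44. Cxcl1, a ligand of the neutrophil receptor CXCR2, was at 10.6, 6.05 and 10.8 TPM untreated and at 1061, 1060 and 1188 TPM with IL-33, a log2 difference of 6.80 ± 0.21 (limma, adjusted p = 3.61e-05). Cxcl5, another CXCR2 ligand, rose from 24.0 ± 2.25 to 2049 ± 157 TPM. The low end of Cxcl1 was untreated library 2.

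Many of these genes lie in 2 clusters of the genome, whose windows were chosen after the values were seen. On chromosome 5, between 90759360 and 91035215, 6 of 7 tested genes rose, among them Cxcl5, Pf4, Cxcl3, Cxcl1 and Cxcl2. Pf4, platelet factor 4, went from 113 ± 16.3 to 431 ± 17.6 TPM. Ppbp, which lies between Cxcl5 and Pf4, was at 3.84 ± 1.87 TPM untreated and 3.79 ± 2.17 TPM with IL-33 and was not called.

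On chromosome 11, between 82035571 and 82116799, 4 of 5 tested genes rose. Ccl2, the main attractant of monocytes, was at 331, 302 and 313 TPM untreated and at 2184, 2009 and 2032 TPM with IL-33, a log2 difference of 2.71 ± 0.05. Ccl11, eotaxin, rose by 2.70, and its neighbours Ccl7 and Ccl12 by 1.55 and 1.54. Ccl8, the last gene of the row, stood at 252 ± 24.5 TPM untreated and 245 ± 21.3 TPM with IL-33 and was not called (limma, adjusted p = 0.816).

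Elsewhere in the genome Ccl20, the ligand of CCR6, rose by 2.44 on 77 estimated reads against 9, and Ccl6, a CC chemokine of mouse myeloid cells, rose from 459 ± 4.39 to 1929 ± 24.6 TPM. Cxcl12, the constitutive stromal chemokine, stood at 241 ± 9.57 and 225 ± 1.35 TPM and was not called.

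A cluster of matrix metalloproteinase genes on chromosome 9, between 7272514 and 7581885, was chosen in the same way. All 6 of its tested genes were called higher: Mmp13, Mmp12, Mmp3, Mmp10, Mmp8 and Mmp27. Mmp3, stromelysin 1, was at 73.0, 62.5 and 72.4 TPM untreated and at 593, 564 and 663 TPM with IL-33, a log2 difference of 3.11 ± 0.08 (limma, adjusted p = 1.97e-05). Mmp10 rose by 3.14 and the collagenase Mmp13 by 2.17. Mmp27 was lost on leaving out any 1 library.

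**Figure D3:**
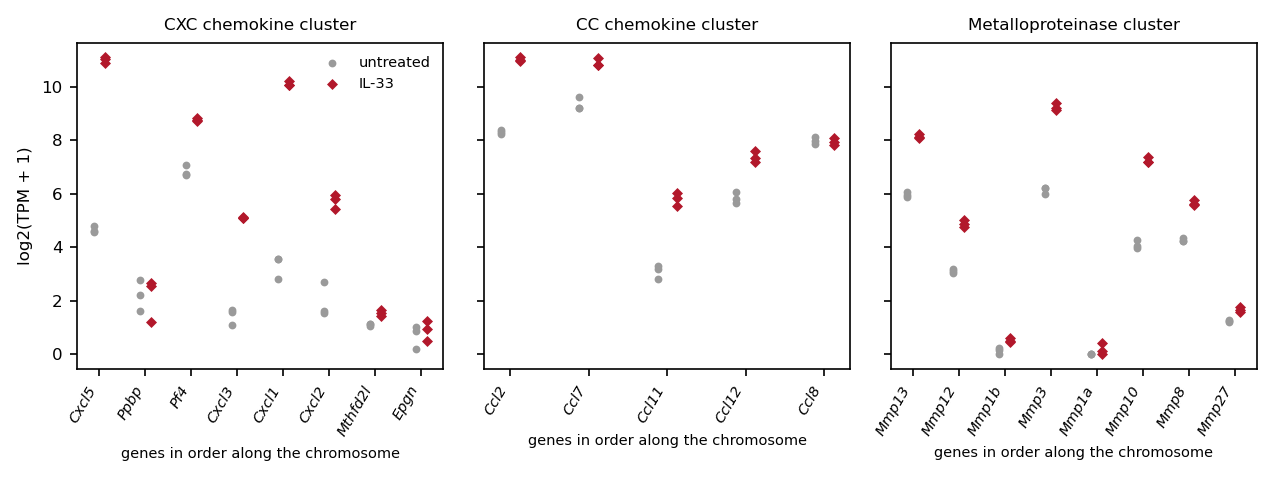
TPM on the log2(TPM + 1) scale for the genes of the 3 genomic clusters, in chromosome order, with 1 point per library (grey circles untreated, red diamonds IL-33). Ppbp and Ccl8 overlap between groups inside clusters whose other tested genes rose.

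Of 14 tested interleukins and colony-stimulating factors 10 rose, 0 fell, and all 10 were called in every fit that left out 1 library. Il1a, an alarmin of the same family as IL-33, was at 1.05, 0.985 and 0.205 TPM untreated and at 24.5, 26.2 and 28.7 TPM with IL-33, a log2 difference of 4.01 ± 0.22 (limma, adjusted p = 0.000286). Lif, a cytokine of the IL-6 family, rose from 11.5 ± 1.31 to 119 ± 2.07 TPM, a log2 difference of 3.27 ± 0.08. The neutrophil factor Csf3 went from 1 estimated read in all to 106, and the granulocyte and macrophage factor Csf2 from 1 to 52.

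Outside the naming rule, Il6 rose by 2.69 and Il11 by 1.27, both of the IL-6 family, and Il1b by 2.10. Csf1, the growth factor that maintains macrophages, was at 476 ± 8.72 TPM untreated and 453 ± 5.42 TPM with IL-33 and was not called.

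Of 27 cytokine receptor chains 8 rose and 4 fell, with a median of 0.09. Il13ra2 (X chromosome, 147383476 to 147429192), the decoy receptor for IL-13, was at 0.152, 0.149 and 0.163 TPM untreated and at 2.63, 2.76 and 3.34 TPM with IL-33. Its long gene gave 388 estimated reads against 20, and the log2 difference was 1.75 on the TPM scale and 4.19 with limma-voom on reads. Csf2rb, the common beta chain for GM-CSF, IL-3 and IL-5, rose by 0.93, though reads it shares with its near copy Csf2rb2 may have been split by the counter. Il6st, the shared signalling chain gp130, fell from 223 ± 7.05 to 158 ± 7.77 TPM.

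In the TNF family 9 of 24 rose and 2 fell. Tnfsf14, also called LIGHT, rose by 2.12, the costimulatory receptor Tnfrsf9 by 1.83 and Tnfsf11, the osteoclast factor RANKL, by 1.57. Tnfrsf11b, the decoy receptor of RANKL, was lower by 0.43, a call lost in 4 of the 6 fits that left out 1 library. Tnf itself was at 18.2 ± 3.71 TPM untreated and 18.1 ± 2.90 TPM with IL-33.

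Several genes of arginine use rose, with 8 of 15 members higher and 2 lower. Nos2 (chromosome 11, 78920787 to 78960254), inducible nitric oxide synthase, was at 0.0503, 0.0862 and 0.135 TPM untreated and at 11.8, 12.5 and 11.6 TPM with IL-33. Estimated reads were 10 against 1377, and the log2 difference of 3.57 on the log2(TPM + 1) scale understates the change of so low a gene. Arg1, the arginase that makes ornithine, was at 143, 144 and 136 TPM untreated and at 599, 587 and 623 TPM with IL-33, a log2 difference of 2.09 ± 0.04 (limma, adjusted p = 5.52e-06). Ass1, which rebuilds arginine from citrulline, rose by 1.73 and the arginine transporter Slc7a2 by 1.56. Slc7a1, another arginine transporter, was lower by 0.36, a call lost in 4 of the 6 fits that left out 1 library.

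In prostaglandin synthesis the inducible enzymes rose and a breakdown enzyme fell. Ptges rose from 21.0 ± 0.23 to 66.8 ± 2.88 TPM and Ptgs2, the cyclooxygenase COX-2, from 539 ± 8.60 to 1277 ± 60.1 TPM. Ptgir, the prostacyclin receptor, rose by 1.20. Hpgd, which inactivates prostaglandins, was at 2.74, 2.49 and 2.29 TPM untreated and at 0.700, 0.476 and 0.687 TPM with IL-33, a log2 difference of -1.11. In the whole list of 22 tested genes 5 rose and 3 fell, and 14, among them Ptgs1 and the leukotriene enzyme Alox5, were not called.

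Complement genes split, with 5 of 19 higher and 4 lower. Cfb, the protease of the alternative pathway, rose by 2.47, its stabiliser Cfp by 1.18 and the central component C3 by 1.13. Masp1, a protease of the lectin pathway, fell by 1.15. Among 29 antioxidant genes and metallothioneins 7 rose, Mt1 and Mt2 among them, and 0 fell. The largest rise was that of Sod2, the mitochondrial superoxide dismutase, which went from 24.3 ± 1.03 to 83.8 ± 4.27 TPM.

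Adhesion molecules rose in 7 of 16 cases and fell in 2. Pdpn, podoplanin of reticular stromal cells, rose by 0.79 and Vcam1, the ligand of integrin alpha 4 beta 1, by 0.71. Mcam, found on pericytes and smooth muscle, fell from 70.6 ± 3.83 to 31.9 ± 3.72 TPM. Of 19 integrin genes 2 rose and 7 fell. Itga8, the alpha chain that binds nephronectin, was at 3.93, 3.93 and 4.11 TPM untreated and at 1.10, 1.10 and 1.23 TPM with IL-33, a log2 difference of -1.22. With median-ratio scaling 4 rose and 6 fell.

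The contractile genes fell together: 22 of 27 tested members were lower and 1 higher, with a median of -0.38, and 18 of the falls were called in every fit that left out 1 library. Median-ratio scaling left 19 of the falls. Acta1 (chromosome 8, 123891769 to 123894751), skeletal alpha actin, was at 25.0, 27.4 and 29.9 TPM untreated and at 8.27, 8.10 and 7.79 TPM with IL-33, a log2 difference of -1.65 ± 0.07 (limma, adjusted p = 0.000129). Des, the intermediate filament of muscle, fell by 0.87, Myh11, smooth muscle myosin, by 0.75 and Lmod1, an actin nucleator, by 0.71.

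The best known member, Acta2, smooth muscle actin, went from 1955 ± 39.1 to 1351 ± 11.1 TPM, a log2 difference of -0.53. Summed contractile genes stood at 12962 to 13303 TPM untreated and at 10204 to 10417 TPM with IL-33. The exception was Tagln2, a calponin relative, which was higher by 0.39, a call lost in 2 of the 6 fits that left out 1 library. The gene of their regulator Srf was not called at -0.06. Of 6 tested smooth muscle and pericyte markers 5 were lower, of which Myh11, Des and Actg2 are also in the contractile list. Rgs5, also a marker of this list, was left out by the filter at 1 TPM. It had 9, 4 and 5 estimated reads untreated and 15, 10 and 12 with IL-33. That is a log2 difference of 1.04 (limma-voom on estimated reads, adjusted p = 0.0459). The sum of the marker list was 357 to 372 TPM with IL-33 and 583 to 603 TPM untreated, and its part in the result was not tested.

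Small leucine-rich proteoglycans, which coat collagen fibrils, divided by gene. Dcn (chromosome 10, 97479609 to 97518143), decorin, was at 124, 121 and 140 TPM untreated and at 247, 238 and 272 TPM with IL-33, a log2 difference of 0.97 ± 0.08 (limma, adjusted p = 0.000989). Lum, lumican, rose by 0.79. Ogn (chromosome 13, 49608046 to 49624501), osteoglycin, was at 40.9, 43.4 and 50.1 TPM untreated and at 12.6, 15.2 and 17.6 TPM with IL-33, a log2 difference of -1.51 ± 0.13.

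Aspn, asporin, fell by 1.24 and Podn, podocan, by 0.95. In all 2 of 9 rose and 6 fell, and the same numbers were found with median-ratio scaling. Bgn, biglycan, was at 3187 ± 68.2 TPM untreated and 2972 ± 16.2 TPM with IL-33 and was not called.

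Collagen chain genes were mostly lower, with 11 of 21 called and 2 higher, though median-ratio scaling left 6 falls. The type VI chains led: Col6a3 fell from 140 ± 4.07 to 76.9 ± 3.53 TPM, Col6a1 by 0.64 and Col6a2 by 0.63. Col5a3, a chain of fibril-regulating type V collagen, rose by 0.87. Among fibrillar chains Col1a1 and Col3a1 were not called, at -0.23 and -0.09.

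Of 30 matricellular and adhesive glycoproteins 15 fell and 3 rose, or 10 and 4 with median-ratio scaling. Ccn3 fell by 1.23, Ccn5 by 0.76 and the laminin chain Lamb2 by 0.51. Fbln5, fibulin 5 of elastic fibres, fell from 31.1 ± 0.59 to 17.9 ± 1.23 TPM. Of 28 elastic fibre and crosslinking genes 5 rose and 8 fell, and of 12 hyaluronan genes 6 rose and 1 fell. Eln, elastin itself, was left out by the filter at 1 TPM and is not in these counts. It had 20, 18 and 19 estimated reads untreated and 6, 4 and 11 with IL-33. That is a log2 difference of -1.46 (limma-voom on estimated reads, adjusted p = 0.00375). Lox, the enzyme that crosslinks collagen and elastin, was higher by 0.19, a call lost in 2 of the 6 fits that left out 1 library.

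Enzymes and inhibitors of matrix breakdown moved in both directions. Mmp9, gelatinase B, was at 1.84, 1.58 and 1.83 TPM untreated and at 36.2, 34.8 and 35.5 TPM with IL-33, a log2 difference of 3.73 ± 0.06 (limma, adjusted p = 2.89e-06). Of 18 metalloproteinase and inhibitor genes 8 were higher and 5 lower. Timp3, the inhibitor bound to matrix, fell from 362 ± 15.6 to 162 ± 5.75 TPM, while Timp1 was higher by 0.60, a call lost in 3 of the 6 fits that left out 1 library. Mmp2 and Mmp14 were not called.

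Among plasminogen activators and serpins 7 of 19 rose and 7 fell. Serpinb2, plasminogen activator inhibitor 2, was at 3.84, 3.49 and 4.41 TPM untreated and at 62.1, 58.3 and 66.7 TPM with IL-33, a log2 difference of 3.69 ± 0.09. Procr, the endothelial protein C receptor, rose by 1.46 and Plau, urokinase, by 0.55. Of 20 ADAM and ADAMTS proteases 4 were higher and 4 lower. Adamts7 and Adamts4, which cleave cartilage proteins and aggrecan, rose by 1.12 and 0.88, and Adamts15 was lower by 0.81, a call lost in 5 of the 6 fits that left out 1 library.

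**Figure D4:**
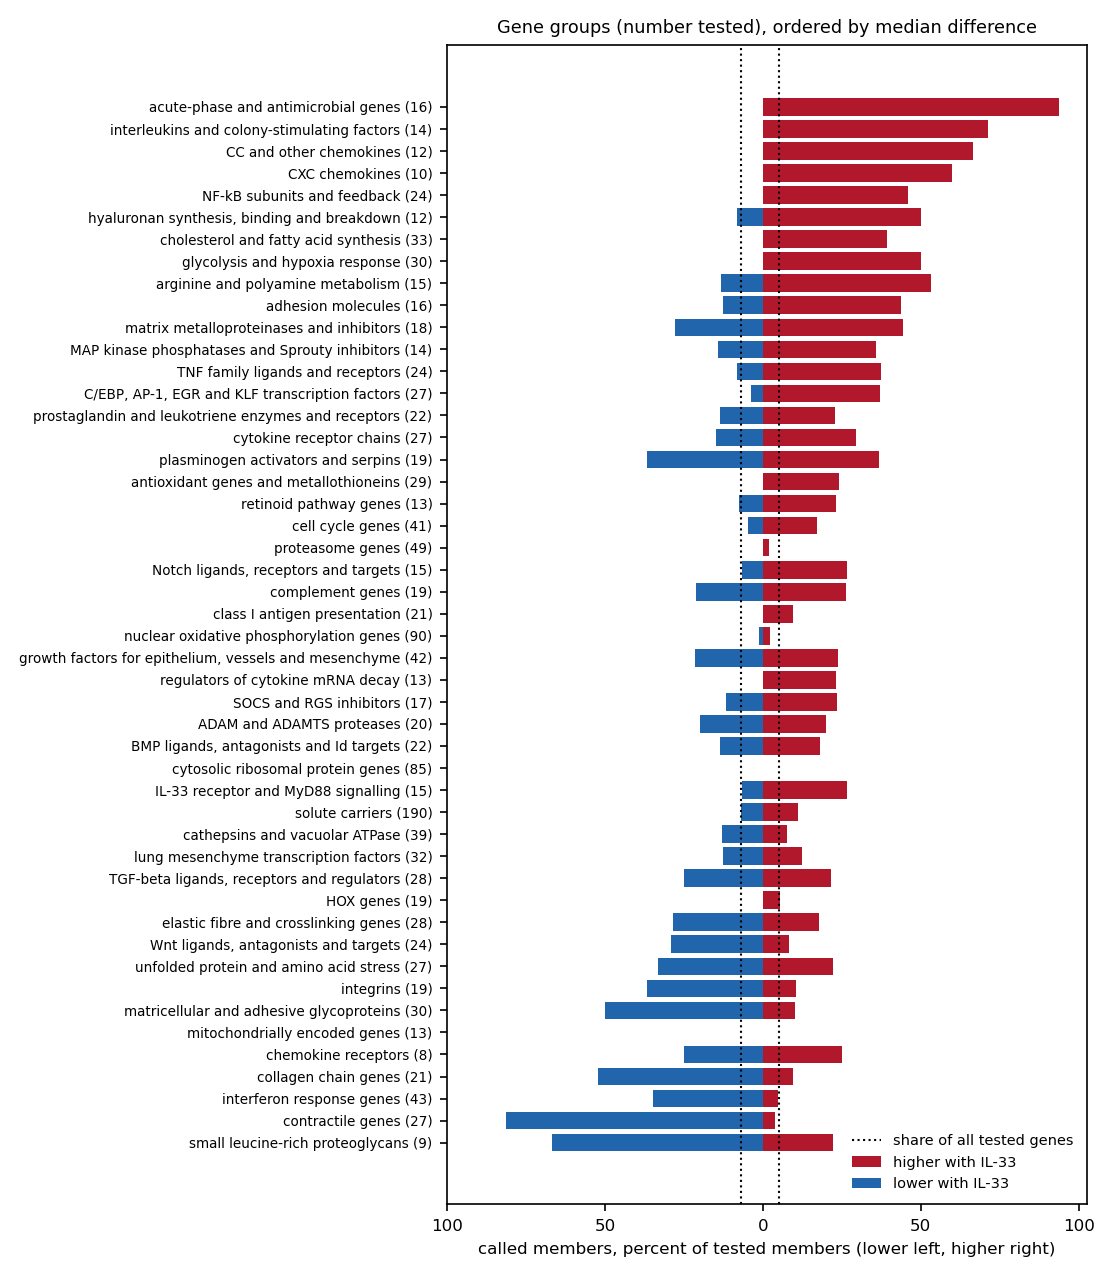
Share of tested members called higher (red, right) or lower (blue, left) in each group with at least 8 tested members, ordered by median difference, with dotted lines at the shares of all tested genes. Acute-phase genes stand at the top with 15 of 16 higher and contractile genes near the bottom with 22 of 27 lower, while ribosomal and mitochondrially encoded genes have 0 calls.

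Signals that shape mesenchyme changed by gene. Of 28 TGF-beta pathway genes 6 rose and 7 fell, with a median of -0.07. Tgfb2 fell from 9.38 ± 0.97 to 3.78 ± 0.21 TPM and Tgfb3 from 184 ± 3.91 to 99.7 ± 4.36 TPM. Tgfb1 was higher by 0.33, a call lost in 4 of the 6 fits that left out 1 library. Inhbb, an activin subunit, fell by 0.76 while the other subunit Inhba rose by 0.46.

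In the BMP list 4 of 22 rose and 3 fell. In the Wnt list 2 of 24 rose and 7 fell: Wnt2b fell by 0.83 and the antagonist Dkk2 by 0.76, while the antagonist Frzb rose by 0.71. Of 42 growth factor genes 10 rose and 9 fell. Ereg, a ligand of the EGF receptor, went from 56.7 ± 2.99 to 172 ± 19.2 TPM and Angptl4, an inhibitor of lipoprotein lipase, rose by 1.29. Vegfd, a factor for lymphatic vessels, fell by 0.86, and outside the naming rule Igf1 fell by 0.84 and Vegfa rose by 0.64.

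Among 32 transcription factors of lung mesenchyme 4 rose and 4 fell. Twist2 rose by 0.98 and Tbx3 by 0.77, while Osr1 fell by 0.64. In the retinoid pathway Crabp1, which binds retinoic acid inside cells, rose by 1.02, and Cyp26b1, which degrades retinoic acid, by 0.53. Of 15 Notch genes 4 were higher and 1 lower, and without library 3 of both groups 0 were called higher. The ligand Dll1 was higher by 1.03 on 63 estimated reads against 16, and the target Hes1 was lower by 0.56, a call lost in 3 of the 6 fits that left out 1 library.

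Interferon response genes were more often lower than higher. Of 43 tested members 15 were lower and 2 higher, with a median of -0.26, but only 4 of the falls were called in every fit that left out 1 library. Rsad2, encoding viperin, was at 3.12, 4.72 and 3.57 TPM untreated and at 1.28, 1.15 and 1.47 TPM with IL-33, a log2 difference of -1.05 ± 0.14 (limma, adjusted p = 0.00728). Ifi44l fell by 1.10. Gbp7, a guanylate-binding protein, rose from 3.21 ± 0.25 to 11.6 ± 1.29 TPM, and Gbp2 by 0.51. Isg15 was not called, at -0.48.

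Lipid and sugar metabolism shifted by small amounts in 1 direction. Of 33 genes of cholesterol and fatty acid synthesis 13 rose and 0 fell, with a median of 0.22. Mvd, of the mevalonate pathway, rose by 0.61 and the desaturase Scd2 by 0.46. Of 30 genes of glycolysis and the hypoxia response 15 rose and 0 fell, with a median of 0.20, among them the prolyl hydroxylase Egln3 at 0.66 and hexokinase Hk2 at 0.37. In every fit that left out 1 library 5 and 6 of these rises were called.

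In the list of unfolded protein and amino acid stress genes the 4 largest changes were falls. Chac1, which degrades glutathione, went from 80.1 ± 5.16 to 42.4 ± 2.13 TPM, Trib3 fell by 0.83, the amino acid transporter Slc7a5 by 0.68 and the serine synthesis enzyme Phgdh by 0.62. The list had 9 falls and 6 rises among 27 genes, and Hspa5, the chaperone BiP, was not called at 0.07 on TPM as deposited. None of the 9 calls among 41 cell cycle genes was made in every fit that left out 1 library, and Mki67 was not called. The 85 ribosomal protein genes and the 13 mitochondrially encoded genes had 0 calls.

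**Figure D5:**
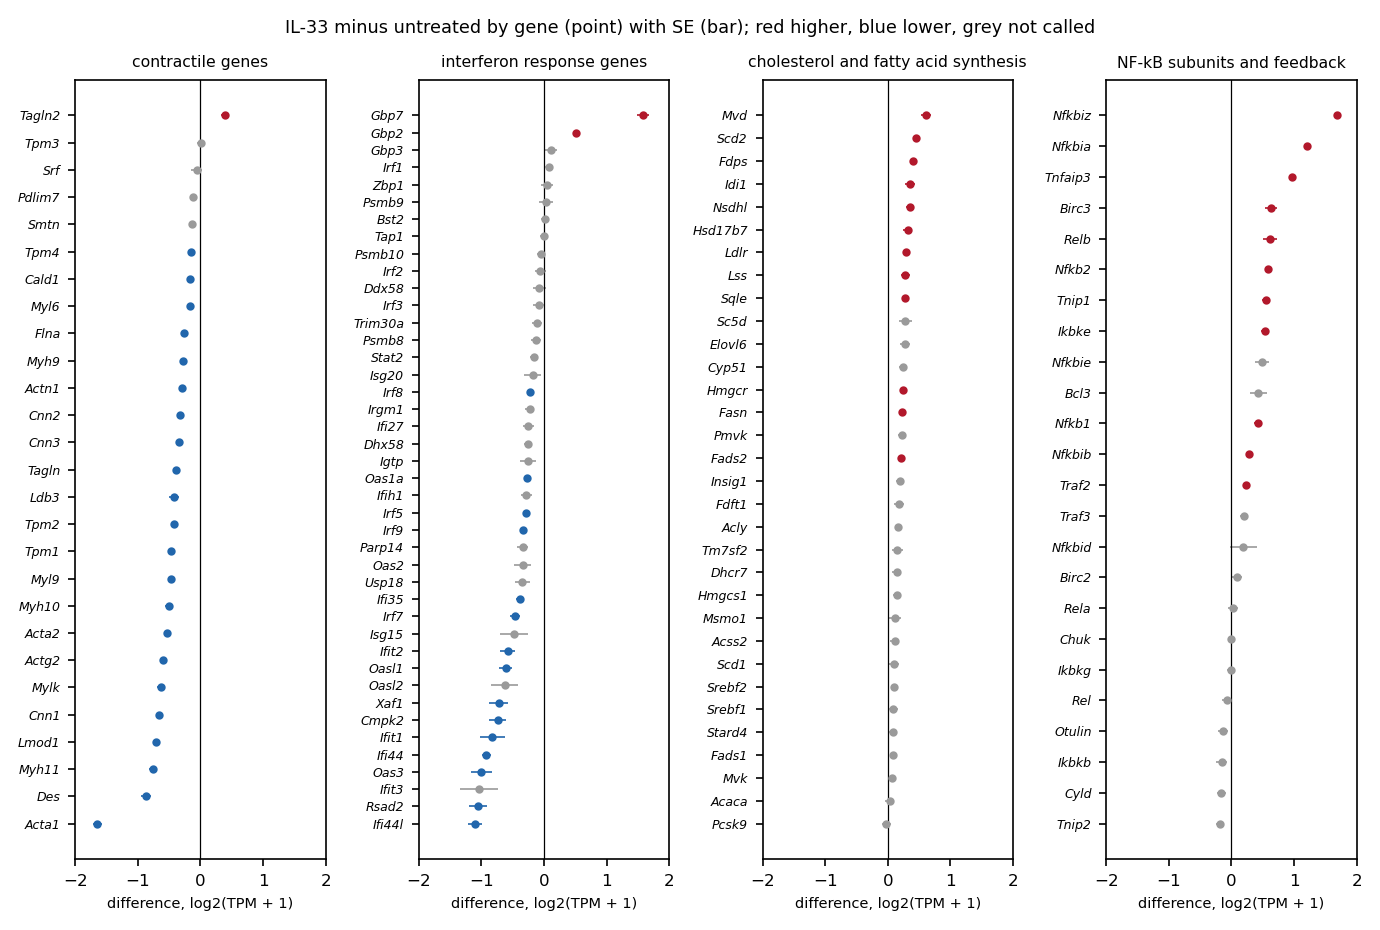
Each point is the IL-33 minus untreated difference of 1 tested gene (members not reported here left out) on the log2(TPM + 1) scale with its SE (bar), in 4 groups; red was called higher, blue lower and grey not called. Contractile genes extend to -1.65 at Acta1 and NF-kB feedback genes to 1.69 at Nfkbiz.

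Genes typical of myeloid cells moved both ways. This set was picked after its values were seen. Cx3cr1 (chromosome 9, 119901616 to 120069879), the fractalkine receptor, was at 5.04, 4.79 and 5.27 TPM untreated and at 0.807, 0.830 and 0.811 TPM with IL-33. Estimated reads were 2399 against 400, with a log2 difference of -1.73 ± 0.07 (limma, adjusted p = 0.000123) and of -2.56 with limma-voom on reads. Ccr1, a receptor for several CC chemokines, rose from 86.2 ± 5.05 to 245 ± 4.34 TPM. Of 8 tested chemokine receptor genes 2 rose and 2 fell.

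The lectin receptor Clec4n rose by 2.50, Olr1, a receptor for oxidised lipoprotein, by 2.26 and the activating receptor Trem1 by 1.49. Clec12a, an inhibitory lectin receptor, fell by 1.25, Cd72 by 1.16 and the DNA sensor Tlr9 by 1.14. Mrc1, the mannose receptor, rose from 51.4 ± 2.34 to 81.1 ± 2.85 TPM. Lyz2, Cd68 and C1qa were not called, with differences of -0.10, -0.13 and 0.02. The part of macrophage numbers in these values was not tested.

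A few of the largest changes belonged to no list. Penk (chromosome 4, 4133531 to 4138819), which encodes the precursor of enkephalins, was at 14.3, 15.9 and 14.3 TPM untreated and at 196, 170 and 197 TPM with IL-33. The log2 difference was 3.58 ± 0.08 (limma, adjusted p = 9.01e-06). Aqp5 (chromosome 15, 99590782 to 99594829), a water channel best known from alveolar epithelium, was at 18.2, 14.3 and 18.1 TPM untreated and at 3.05, 2.33 and 3.74 TPM with IL-33. Its log2 difference was -2.15 ± 0.16 on 194 and 36 estimated reads. Groups that did not overlap were a condition for naming both genes.

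Rpl30-ps1, the called gene with the lowest difference at -2.73, rested on 6 estimated reads untreated and 0 with IL-33. Gm3219 rested on 0 and 9. No fold is given for these gene models, and whether their reads belong to related genes was not tested. G0s2, an inhibitor of triglyceride lipase, fell by 1.44 on 32 estimated reads against 10.

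The values of 4 genes are set beside those of the combination groups as levels, with no test. Lcn2 averaged 274 ± 10.8 TPM with IL-33 alone, 858 ± 127 with IL-17A added, 367 ± 14.5 with IL-13 added and 1147 ± 49.3 with both. Nos2 averaged 11.98 ± 0.47, 129 ± 11.2, 7.01 ± 0.51 and 101 ± 3.60 TPM in the same order. Il13ra2 averaged 2.91 ± 0.38, 6.43 ± 0.66, 22.2 ± 1.06 and 34.5 ± 4.16 TPM, and Acta2 1351 ± 11.1, 672 ± 49.4, 747 ± 13.5 and 421 ± 13.7 TPM. Lcn2 and Nos2 were thus highest in the 2 groups with IL-17A, Il13ra2 in the 2 with IL-13, and Acta2 was lowest with all 3 cytokines.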

How the data were processed

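Total RNA was sequenced in 3 libraries of IL-33 and 3 of untreated cells. The authors deposited TPM for 18078 Ensembl genes, and the submitters' processing notes name HISAT2 and mm10, without versions. Which counter was used, whether by strand, and how it treated shared reads is not given in the sources used here. TPM matched reads divided by gene span, introns included, so levels of different genes depend on intron length. Multiplied back by span, 89.0% to 89.5% of low values (under 200 reads) were whole reads within 0.03, under the 95% set for a count test. Estimated depth was 10.6 to 12.1 M reads, and 1 read on 1 kb was worth 0.993 to 1.13 TPM. Mitochondrially encoded genes held 4.77% to 5.45% of TPM with IL-33 and 5.77% to 6.13% untreated.

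Genes that reached 1 TPM in 3 or more of the 6 libraries were tested with limma 3.58.1 (R 4.3.3, trend and robust options) on log2(TPM + 1), a scale that understates changes of low genes. Benjamini-Hochberg adjustment ran over all tested genes, and calls were made at an adjusted p under 0.05. Differences are IL-33 minus untreated with SE, and means carry SD over 3 libraries. The 41 gene lists, 10 marker lists and 8 families were written, and the comparison chosen, with earlier results of these data known. Lists are described by counts and medians, with no list test. Of 1190 listed genes 1110 were in the files and the rest were not analysed here. A few measured members are counted but not reported by name here.

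Named genes were the 20 largest rises and 12 largest falls among called genes whose groups did not overlap. Also named were the 6 largest rises and falls in TPM, 4 receptor pathway genes, and up to 4 called members per list, with well-known uncalled members. Named outside this rule, after their values were seen, were Irak4, Rgs18, Rgs10, Pf4, Ccl7, Ccl12, Il6, Il11, Il1b, Tnfrsf11b, Slc7a1, Acta2, Tagln2, Timp1, Timp3, Lox, Tgfb1, Igf1, Vegfa, Gbp2, the genes of the 3 clusters, Adgre1 and the myeloid set. Calb2, Rgs5 and Eln, which the filter left out, were also named after their values were seen. RefSeq promoters matched 9548 tested genes. Added after seeing the data were limma-voom on estimated reads and a fit without library 3 of both groups. The scripts were tested on simulated data. Python 3.11.15, pandas 2.3.3 and numpy 2.4.6 were used.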

Additional observations from a re-analysis of the deposited data

How the results depend on the processing

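The naming rule without its well-known uncalled members gave 205 genes, of which 203 were called. Of the 205, 154 kept their direction and their side of the threshold in each of the 12 planned and 3 added settings that tested them (182 were tested at the 5 TPM filter), 0 reversed, and 216 of 3043 comparisons lost the call. Without library 3 of both groups 36 lost it, among them Irak3, Arid5a, Ccl20, Dll1, Rsad2, Mvd, Cd14 and Csf3r. In the same fit the members called higher went from 4 to 2 in the IL-33 receptor list, 5 to 2 among MAP kinase inhibitors, 9 to 4 in the TNF family, 7 to 3 among adhesion molecules, 6 to 3 among hyaluronan genes, 4 to 2 among ADAM proteases, 13 to 7 in cholesterol synthesis and 6 to 1 among stress genes. Members called lower went from 4 to 2 among cytokine receptors, 7 to 3 among serpins, 7 to 4 in the Wnt list and 4 to 2 among mesenchyme factors. The number of genes called was 1982 with all 15 libraries in the fit, 1574 with a pseudocount of 0.1, 1477 with no filter on low values, 1474 with a filter at 5 TPM, 1634 with median-ratio scaling (942 higher, 692 lower) and 1477 without limma's trend and robust options. It was 2384 with limma-voom on estimated reads of the same genes, of which 1280 were higher. With limma-voom and a filter at 10 reads 2615 were called, 1393 of them higher and 300 at 2-fold or more. Without library 3 of both groups 998 were called, 475 higher and 523 lower. Leaving out 1 library gave 816 to 1298 called genes (902, 861 and 1298 without IL-33 libraries 1, 2 and 3, and 927, 816 and 1084 without untreated libraries 1, 2 and 3), with 407 to 566 higher, 409 to 766 lower and 164 to 189 at 2-fold or more. For rises and falls the counts were 447 and 455, 424 and 437, and 532 and 766 without IL-33 libraries 1, 2 and 3, and 470 and 457, 407 and 409, and 566 and 518 without untreated libraries 1, 2 and 3. The cause of these differences was not tested, apart from the fewer samples of each such fit. A planned count test needed 95% whole reads and was not run. No paired analysis was possible because the labels give no replicate numbers, and the library numbers used here follow the order of deposition and pair no samples. Precision is limited by 3 libraries per group, and low values of short genes rest on few reads: of tested genes under 5 TPM 6.99% were called, against 31.3% at 1000 TPM or more.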

Other observations

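The filter at 1 TPM left out long genes that had reads, since TPM here was divided by the whole gene span. Of the genes left out, 1162 had 10 or more estimated reads in at least 3 of the 6 libraries, with a median span of 106 kb against 17.4 kb for the tested genes. In limma-voom on estimated reads, a test chosen after seeing the data, 206 of them were called, 79 higher and 127 lower, and 74 of these by 2-fold or more. That fit called 2615 genes in all, 1393 higher and 1222 lower. For comparison, limma-voom on the 13275 tested genes called 2384 of them, 1280 higher and 1104 lower. Angpt1, the ligand of the endothelial receptor TIE2, had 70, 54 and 63 estimated reads untreated and 137, 197 and 186 with IL-33, a log2 difference of 1.47 (limma-voom, adjusted p = 2.09e-06). The guidance factor Ntn1 went from 53.7 to 137 mean reads, a log2 difference of 1.38. Il34, the second ligand of the CSF1 receptor, had 18 reads in each untreated library and 30, 42 and 38 with IL-33, a log2 difference of 1.01 (limma-voom, adjusted p = 0.00346), while the first ligand, Csf1, was not called on the TPM scale. The potassium channel genes Kcnk10 and Kcnq5 rose by 2.21 and 2.09.

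Among long genes that were lower, Itgbl1, a secreted protein related to beta integrins, had 100, 96 and 82 reads untreated and 20, 24 and 33 with IL-33, a log2 difference of -1.83 (limma-voom, adjusted p = 2.38e-06). Aldh1a1, which makes retinoic acid, went from 77.3 to 23.3 mean reads, a log2 difference of -1.70. Mme, the peptidase neprilysin that cleaves enkephalins among other peptides, fell by 1.20, from 53.7 to 23.3 mean reads. Any link to the rise of Penk was not tested. These genes were chosen after their values were seen.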
